A study of Mus musculus with 12 samples.

Results

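Inversional junctions within Sμ are joins in which a broken end at 5′Sμ was joined to another broken end in or near the same switch region in the orientation opposite to that of a deletion. They were chosen by coordinate and orientation alone, as every junction on chromosome 12 between 114657001 and 114675000 whose prey reads on the plus strand, where deletional preys read on the minus strand like the bait. There were 4317 such junctions of 18751 junctions in Sμ and 53012 junctions in all. The other 14434 Sμ junctions are called deletional by strand alone. Coordinates are those of the hybrid genome of the deposited files (AJ851868/mm9), in which 129-strain IgH sequence replaces the mm9 sequence, and differ from mm9 within Sμ.

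CSR-HTGTS-seq starts from a primer placed at 5′Sμ, the bait, and sequences whatever genomic DNA was joined next to it, the prey. It was applied to splenic B cells in 12 libraries, 3 per condition. The 4 conditions were WT cells and 3′IgH CBEs-deleted cells that had received either αCD40/IL4 or LPS/αIgD-dextran in culture over 96 h. The deleted cells lacked all CTCF-binding elements downstream of the 3′ IgH regulatory region on both alleles. The B cells of both genotypes came from chimeras made by injecting 129/Sv TC1 ES cells, unmodified or deleted, into RAG2-deficient blastocysts, whose own lymphocytes do not develop, and they were isolated by depletion of CD43-positive cells. How many deleted ES clones were used was not given in the sources used here, and the identity of the cells cannot be checked in lists of DNA junctions.

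Class switch recombination replaces the Cμ exons by joining a break in Sμ to a break in a downstream switch region. AID, the enzyme that starts the process, deaminates cytosines in transcribed switch DNA, preferentially in short motifs such as AGCT, and repair of the lesions gives double-strand breaks. Because Sμ is broken at many sites, its ends are also joined to each other, which leaves a shortened Sμ after a deletional join and an inverted stretch of Sμ after an inversional one. IgH genes are transcribed toward lower coordinates, so a prey at a coordinate below the primer lies inside or downstream of 5′Sμ and a prey above it lies toward the JH segments. The coordinate window called Sμ here holds both kinds, and 504 of the 4317 inversional preys lay above the primer start. Of the 14434 junctions called deletional, 386 had the prey above the primer start and 210 between it and the end of the bait. Such a join is no deletion on the same chromosome, so the name stands for the strand alone.

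The bait was the same in both orientations. Its first 120 bases from the primer start, chr12:114669139-114669258 on the minus strand, were read from the files. They are shown with every AGCT in capitals, since the most used inversional bait ends lie in the first of these. They matched mm9 once, at chr12:114664790-114664909, outside any annotated gene of GENCODE M1 and above the Ighm constant-region exons at chr12:114659078-114660941. The second sequence is the 200-base stretch with the most inversional preys, chr12:114667920-114668119 on the minus strand, again with AGCT in capitals.
bait: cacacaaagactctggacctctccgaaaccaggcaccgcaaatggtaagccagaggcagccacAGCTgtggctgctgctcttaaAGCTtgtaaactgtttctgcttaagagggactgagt
stretch with the most inversional preys: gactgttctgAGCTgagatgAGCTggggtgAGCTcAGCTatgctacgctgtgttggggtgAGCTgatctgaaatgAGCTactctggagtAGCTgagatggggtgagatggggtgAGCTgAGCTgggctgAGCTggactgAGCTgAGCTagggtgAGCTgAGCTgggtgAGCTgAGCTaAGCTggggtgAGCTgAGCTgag

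The bait sequence held its first AGCT at bases 64 to 67, counted from the primer start, and the next at bases 85 to 88. The stretch below it held 19 AGCT motifs, which covered 38% of its positions, against 17.7% of the Sμ positions whose base could be read. It took 16.0% ± 2.77 (SD, n = 12 libraries) of the inversional preys and 7.47% ± 2.13 of the deletional preys. The stretch was picked for its inversional count, so that comparison is a description without a test.

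The junctions themselves are shown by 7 reads, each with 35 bases of bait before the join and 35 bases of prey after it. They are the most recurrent junction with overlap, without overlap and with an insertion. The others are the pair with the greatest span and the pair with the nearest bait and prey among junctions found in at least 2 libraries. Capitals mark the bases that could belong to either side, or the inserted base in the third read.
overlap of 13 bases, bait end 114669149, prey 114668849: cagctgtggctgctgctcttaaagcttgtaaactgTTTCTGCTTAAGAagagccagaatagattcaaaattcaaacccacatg
no overlap, bait end 114669216, prey 114668083: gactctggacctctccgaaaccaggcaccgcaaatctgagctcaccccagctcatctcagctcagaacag
insertion of 1 base, bait end 114669195, prey 114666440: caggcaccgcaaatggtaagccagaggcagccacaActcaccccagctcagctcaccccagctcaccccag
overlap of 3 bases, bait end 114669200, prey 114664725: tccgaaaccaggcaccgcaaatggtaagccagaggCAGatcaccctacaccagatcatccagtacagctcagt
overlap of 5 bases, bait end 114669192, prey 114664890: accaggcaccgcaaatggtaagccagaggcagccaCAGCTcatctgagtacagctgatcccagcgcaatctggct
overlap of 4 bases, bait end 114669215, prey 114669128: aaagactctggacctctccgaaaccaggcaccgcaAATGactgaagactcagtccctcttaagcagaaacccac
overlap of 2 bases, bait end 114669223, prey 114669132: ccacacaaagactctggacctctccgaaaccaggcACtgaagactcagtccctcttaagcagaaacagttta

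The first of these reads was found in 9 of 12 libraries and in all 4 conditions, 4 WT and 5 deleted libraries, with the same 13-base overlap TTTCTGCTTAAGA each time. The bait and the prey of this join lie 300 bp apart and hold the overlap on opposite strands. The join shown with an insertion was found in 2 libraries, with 1 inserted base in 1 of them and a blunt join in the other. The spans of the longest pair were 4475 and 4302 bp, and those of the nearest pair were 87 and 91 bp. Each join of these pairs was found in 2 WT libraries of 1 condition and in no deleted library. Of the 2 nearest joins, 1 came from WT LPS/αIgD-dextran replicates 2 and 3, the libraries that shared the most joins, as given below. So few libraries allow no comparison of genotypes. Recurrence was the exception, since 3798 of 4001 distinct combinations of bait end and prey position (94.9%) occurred in 1 library, 26 in at least 3 libraries and 5 in at least 4.

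The number of inversional Sμ junctions per library ranged from 209 to 530, and all junctions of a library from 2273 to 8261. According to the read names, 4 sequencing runs were used. One held the 4 libraries numbered 1, another held those numbered 2 together with the LPS/αIgD-dextran libraries numbered 3, and the αCD40/IL4 libraries numbered 3 were each run alone. WT LPS/αIgD-dextran replicates 2 and 3 shared 50 combinations of bait end and prey position, 10.5% of those of the smaller library, while the other 65 pairs of libraries shared 0 to 13, at most 3.51%. Only 4 of the 50 also had the same far end of the prey. Differences that involve WT LPS/αIgD-dextran cells are therefore also given without each of them where they were called. Nothing in the labels says that libraries of a condition came from separate animals, so p-values measure the spread between libraries. With 3 libraries against 3, the smallest two-sided exact permutation p is 0.1, and conditions are described as apart where no library of one lay within the range of the other.

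With αCD40/IL4, a larger share of Sμ junctions was inversional in deleted cells than in WT cells. In WT libraries the inversional share of Sμ junctions was 19.1%, 18.8% and 20.5%. In deleted libraries it was 28.3%, 30.9% and 31.5%. The lowest deleted library lay above the highest WT library, and its 95% Wilson interval of 25.7% to 31.1% did not reach the 22.7% at the top of the interval of that WT library. The means were 30.3% ± 1.71 and 19.5% ± 0.906 (SD, n = 3 each), a difference of 10.8 percentage points (exact permutation p = 0.1, the smallest possible, 0.233 after Benjamini-Hochberg adjustment over 7 measures). Within the shared sequencing runs the difference was 9.23 points for replicate 1 and 12.1 points for replicate 2.

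With LPS/αIgD-dextran the corresponding shares overlapped. WT libraries gave 22.4%, 23.9% and 21.5%, and deleted libraries gave 22.2%, 22.0% and 23.0%. The means were 22.6% ± 1.19 in WT and 22.4% ± 0.556 in deleted cells (exact permutation p = 0.8, n = 3 each). Without WT replicate 2 or without WT replicate 3 the difference between deleted and WT cells was 0.408 or -0.769 points, so its sign turned with 1 library. It was -1.97 points when each prey position was counted once per library and -2.17 points with preys of at least 100 aligned bases, and in both settings the genotypes were apart with WT cells higher (exact permutation p = 0.1, the smallest possible). The filter of 100 aligned bases, also used below, dropped most inversional junctions, whose median prey length was 91 bases. The difference between the genotypes was larger with αCD40/IL4 than with LPS/αIgD-dextran by 11.0 percentage points, and every same-numbered difference with αCD40/IL4, 9.23, 12.1 and 11.0 points, lay above every difference with LPS/αIgD-dextran, -0.275, -1.90 and 1.5 points (exact permutation of the 6 differences, p = 0.1, the smallest possible, adjusted p = 0.233). That test matches libraries by number, although libraries of one number were not shown to deviate together. The stimulations were apart in both genotypes but in opposite order, since the αCD40/IL4 share was lower than the LPS/αIgD-dextran share in WT cells and higher in deleted cells (exact permutation p = 0.1 for each, the smallest possible, adjusted p = 0.14 and 0.175). The difference in WT cells was -3.16 points, and -2.52 or -3.70 points and still apart without LPS/αIgD-dextran replicate 2 or 3. In WT cells they were no longer apart with preys of at least 100 aligned bases, at 22.9% and 24.2% (exact permutation p = 0.7).

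Both genotype comparisons changed with the denominator. Of all junctions in the 300-kb IgH window, inversional Sμ junctions made up 7.54%, 7.70% and 7.97% in WT αCD40/IL4 libraries and 15.1%, 17.2% and 16.5% in deleted ones. With LPS/αIgD-dextran they made up 8.92%, 9.80% and 8.69% in WT libraries and 15.1%, 15.02% and 15.8% in deleted ones. On this scale the deleted libraries were higher with both stimulations (exact permutation p = 0.1 for each, the smallest possible, n = 3 each), and every WT LPS/αIgD-dextran library lay below every deleted one. Of all junctions genome-wide, the shares with αCD40/IL4 were 7.08%, 5.88% and 5.93% in WT and 13.1%, 12.1% and 6.37% in deleted libraries, so that deleted replicate 3 lay within the WT range and the genotypes were not apart (exact permutation p = 0.2). Only 1267 of the 3281 junctions of that replicate lay in the window, the smallest part of any library. With LPS/αIgD-dextran the genome-wide shares were 8.35%, 7.71% and 6.42% in WT and 11.9%, 9.01% and 10.2% in deleted libraries. The genotypes were apart there, with deleted cells higher. The share of the window depends on the junctions at all other regions as well, whereas the share of Sμ junctions does not. Deletional Sμ junctions also took a larger part of the window in deleted libraries, so the rise was not particular to inversional ones. With LPS/αIgD-dextran they were 1213 of 3933, 1542 of 4940 and 1931 of 6097 window junctions in WT libraries. In deleted libraries they were 1106 of 2087, 1511 of 2836 and 1564 of 2958. With αCD40/IL4 they numbered 1111, 1273 and 1082 in WT and 752, 895 and 454 in deleted libraries. With αCD40/IL4 the window held 3476, 3830 and 3499 junctions in WT and 1961, 2329 and 1267 in deleted libraries. These counts lay below the IgH totals that the paper lists for αCD40/IL4, whereas the LPS/αIgD-dextran counts equalled the paper's totals. For each αCD40/IL4 library the paper lists more junctions in Sγ1 alone than the whole window held here, so Sγ1 junctions are among those missing. Window and genome-wide shares with αCD40/IL4 thus rest on fewer IgH junctions than the paper counted, and why they are missing was not tested.

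**Figure D1:**
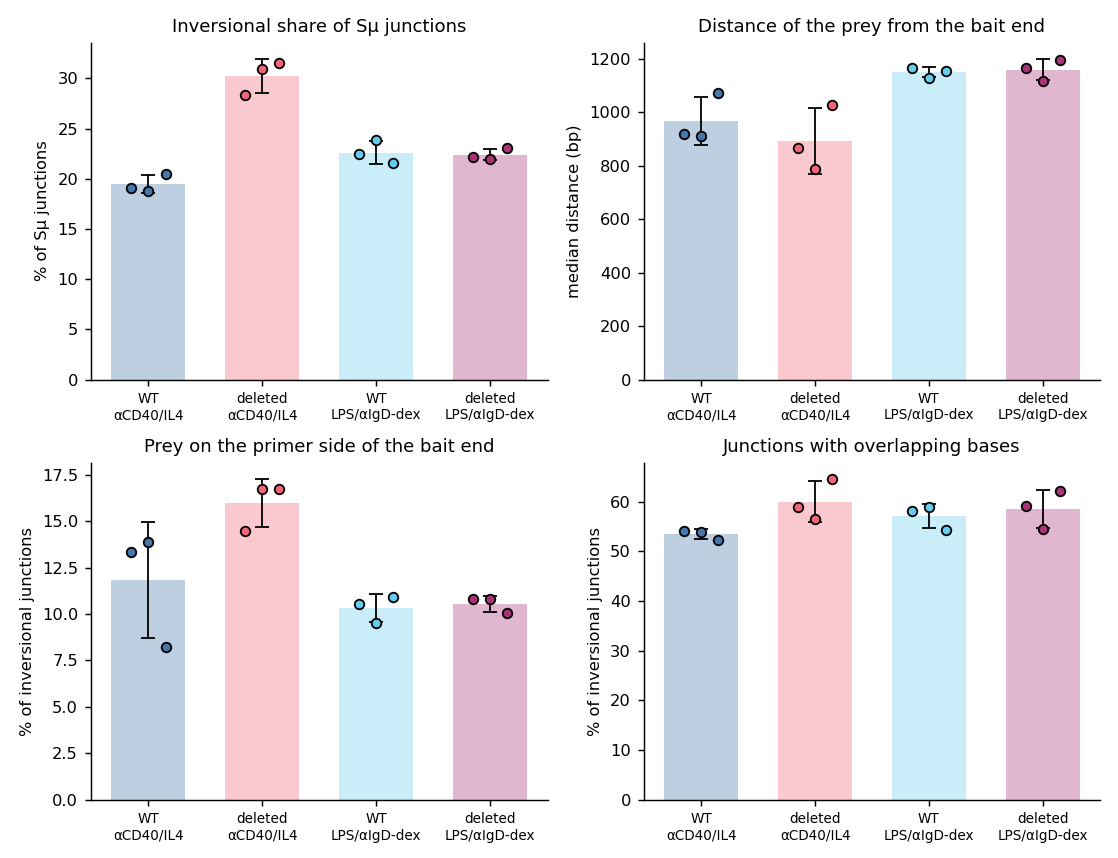
Inversional Sμ junctions in each library, by condition: the inversional share of Sμ junctions, the median distance in bp between bait end and prey, the percentage of inversional junctions with the prey on the primer side of the bait end, and the percentage with overlapping bases. Points are libraries, bars are means of 3 libraries and whiskers are SDs. The 3 deleted αCD40/IL4 libraries lie between 28.3% and 31.5% inversional, above the 9 libraries of the other conditions.

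Inversional preys lay close to the bait end on the scale of the region, and their position differed between stimulations. The median prey position below the primer start was 975.5, 940 and 1146 bp in WT αCD40/IL4 libraries, and 915, 847 and 1026 bp in deleted αCD40/IL4 libraries. It was 1197, 1181.5 and 1208 bp in WT LPS/αIgD-dextran libraries, and 1252, 1183.5 and 1275 bp in deleted ones. Every αCD40/IL4 library had its median prey nearer the primer than every LPS/αIgD-dextran library of either genotype. Over both genotypes the difference, αCD40/IL4 minus LPS/αIgD-dextran, was -241 bp (exact permutation within genotypes, p = 0.005, the smallest possible over 400 relabellings, adjusted p = 0.0175). It was -245 bp without WT LPS/αIgD-dextran replicate 2 and -238 bp without replicate 3 (exact permutation p = 0.01 for each). The same test of genotype gave no adjusted p under 0.152 for any of the 7 measures. Over both stimulations, deleted minus WT was 5.28 points for the inversional share, 2.18 for preys on the primer side and 4.01 for overlap. Their p-values were 0.065, 0.05 and 0.06 (exact permutation within stimulations, adjusted p = 0.152 for each).

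Measured from the bait end itself, the median distance was 969 ± 90.3 bp in WT and 894 ± 123 bp in deleted cells with αCD40/IL4, and 1150 ± 17.8 and 1159.8 ± 40.7 bp with LPS/αIgD-dextran (SD, n = 3 each). The difference between stimulations was -224 bp (exact permutation within genotypes, p = 0.005, the smallest possible, adjusted p = 0.0175), and -228.5 or -222 bp without WT LPS/αIgD-dextran replicate 2 or 3 (exact permutation p = 0.01 for each). Within the run of the libraries numbered 1 it was -243.5 bp in WT and -302 bp in deleted cells, and within the run of those numbered 2 it was -230 bp and -368 bp. Neither the position nor the distance separated the genotypes with either stimulation (exact permutation p = 0.3 to 0.8). When only preys with at least 100 aligned bases were kept, the conditions of deleted cells were no longer apart, with distances of 1040 bp and 1162.5 bp (exact permutation p = 0.3).

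Inside Sμ the 3 kilobases with the most inversional preys lay next to one another. The kilobase 114668001 to 114669000, just downstream of the printed bait, held 45.4% ± 5.77 of inversional junctions (SD, n = 12 libraries, lowest 37.4%, highest 56.3%). The next one downstream, 114667001 to 114668000, held 21.0% ± 3.61, and the kilobase of the primer, 114669001 to 114670000, held 11.7% ± 4.52. In the last of these the mean share was 18.3% ± 2.44 in deleted and 11.1% ± 2.50 in WT cells with αCD40/IL4, and 10.0% ± 0.373 and 7.17% ± 0.172 with LPS/αIgD-dextran (n = 3 each). The kilobase 114665001 to 114666000, farther downstream, held 3.56% ± 0.677 in deleted and 6.70% ± 2.27 in WT cells with αCD40/IL4, but 11.6% ± 0.857 and 8.12% ± 1.84 with LPS/αIgD-dextran. These shares of inversional junctions were not tested one by one.

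Kilobase bins were tested as shares of all window junctions, in both orientations over the whole 300-kb window. With αCD40/IL4, 5 of 8 tested inversional Sμ bins were called, all higher in deleted cells, against 41.7% of all bins called in either direction and 30.6% called higher (Fisher's exact test, Benjamini-Hochberg adjusted, with libraries that did not overlap). Without deleted replicate 1, 3 bins were called. The Fisher test was run on junctions pooled over the 3 libraries of a condition, so it covers counting error alone, and the non-overlap of 3 against 3 libraries is the part of the call that rests on replicates and cannot alone go below an exact permutation p of 0.1. With LPS/αIgD-dextran, 6 of 9 bins were called, all higher in deleted cells, against 54.2% in either direction and 28.9% higher, and 6 or 7 bins were called without WT replicate 2 or 3. The called bins with αCD40/IL4 were the 5 consecutive kilobases from 114666001 to 114671000. The most filled kilobase, from 114668001, rose from 4.06% ± 0.239 of window junctions in WT to 7.76% ± 0.456 in deleted cells. The kilobase of the primer rose from 0.858% ± 0.174 to 2.99% ± 0.583. With LPS/αIgD-dextran the called bins were the kilobase from 114663001 and the 5 consecutive kilobases from 114665001 to 114670000, of which that from 114668001 rose from 3.88% ± 0.409 to 5.94% ± 0.112 and that from 114665001 from 0.748% ± 0.206 to 1.77% ± 0.0897. The bins of one region are not independent, and all of them share the denominator described above, on which deletional Sμ junctions rose too.

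The positions along Sμ differed most from the deletional ones right around the bait. Less than 100 bp from the bait end lay 22 of 4317 inversional preys, between 0% and 1.91% of a library, against 9.14% to 25.1% of deletional preys. The 3 libraries with no such inversional junction held 262, 351 and 468 inversional junctions, which allows shares of up to 1.15%, 0.855% and 0.641%. From 500 to under 1000 bp below the bait end the order was the other way round, with 21.4% ± 3.81 of inversional and 10.7% ± 2.15 of deletional preys, and from 1000 to under 2000 bp the values were 29.9% ± 3.67 and 18.2% ± 3.38. Inversional preys were more frequent in both classes in 12 of 12 libraries. At 2000 bp or more, deletional preys were more frequent in 12 of 12 libraries, with 32.4% ± 11.8 against 21.0% ± 6.70. These classes were chosen after the values were seen and were not tested.

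**Figure D2:**
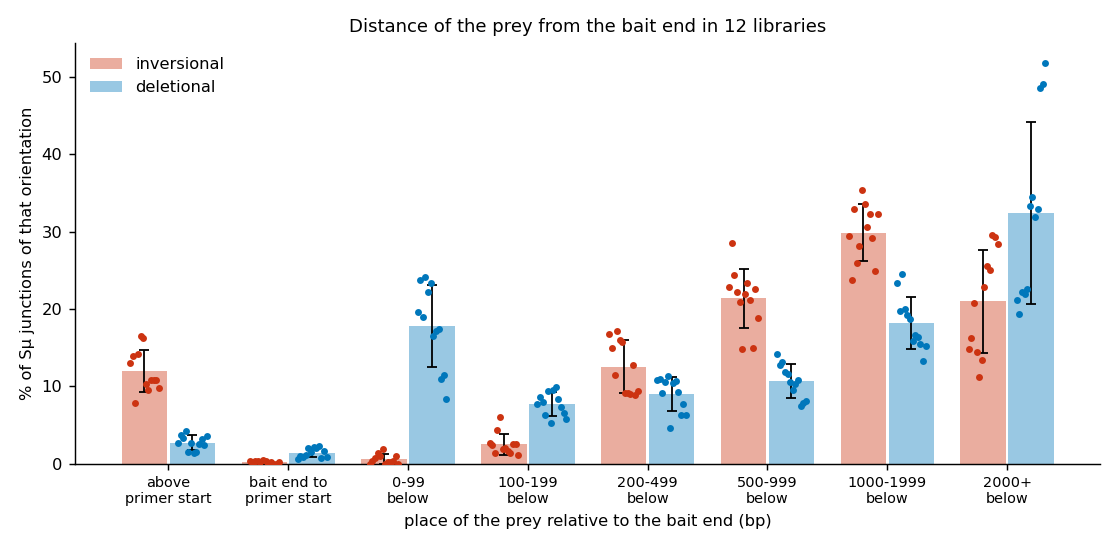
Place of the prey relative to the bait end, as the percentage of inversional or deletional Sμ junctions in each class. Points are the 12 libraries, bars are their means and whiskers are SDs. Inversional preys are near 0 within 100 bp of the bait end, where 17.8% of deletional preys lie below it, and exceed deletional preys above the primer start.

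Preys on the primer side of the bait end were more frequent among inversional junctions. They made up 12.2% ± 2.80 of inversional and 4.12% ± 0.611 of deletional junctions (SD, n = 12 libraries), higher in 12 of 12 libraries (exact sign-flip permutation test, p = 0.000488, the smallest possible, adjusted p = 0.00146 over 6 measures). Nearly all of the inversional ones lay beyond the primer start, 504 junctions, and only 8 lay between the bait end and the primer start. Those 8 were a single join, prey position 114669246 with 1 bait end, found once in each of 8 libraries. In the 500 bases from 114669501 to 114670000, which begin just above the primer, 218 of 256 Sμ junctions were inversional (85.2%), while in the 500 bases from 114669001 to 114669500, which hold bait and primer, 263 of 3517 were (7.48%). From 114668001 to 114668500 the pooled inversional share was 37.3%. Above the bait end a plus-strand prey can be an inversion, while a minus-strand prey is no deletion on the same chromosome. This geometry alone favours inversional preys there. The test and the share above the primer therefore cannot tell a trait of the joins from it.

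Among inversional junctions, the share with the prey on the primer side was 13.4%, 13.9% and 8.24% in WT and 14.5%, 16.7% and 16.7% in deleted αCD40/IL4 libraries. The libraries did not overlap, with means of 11.8% ± 3.12 and 16.0% ± 1.30 (exact permutation p = 0.1, the smallest possible, adjusted p = 0.233), but the difference of 4.14 points became 2.35 points without WT replicate 3, and the shared runs gave 1.12 and 2.81 points for replicates 1 and 2. With preys of at least 100 aligned bases the means were 11.1% and 13.4% and no longer apart (exact permutation p = 0.6). The share was 10.5%, 9.50% and 10.9% in WT and 10.8%, 10.8% and 10.0% in deleted LPS/αIgD-dextran libraries, which overlapped (exact permutation p = 0.7, n = 3 each). Over both genotypes the share was higher with αCD40/IL4 by 3.47 points (exact permutation within genotypes, p = 0.02, adjusted p = 0.0467), and by 3.26 or 3.62 points without WT LPS/αIgD-dextran replicate 2 or 3 (exact permutation p = 0.045 and 0.025). In WT cells alone the stimulations overlapped, where WT αCD40/IL4 replicate 3 was the lowest of all 12 libraries.

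**Figure D3:**
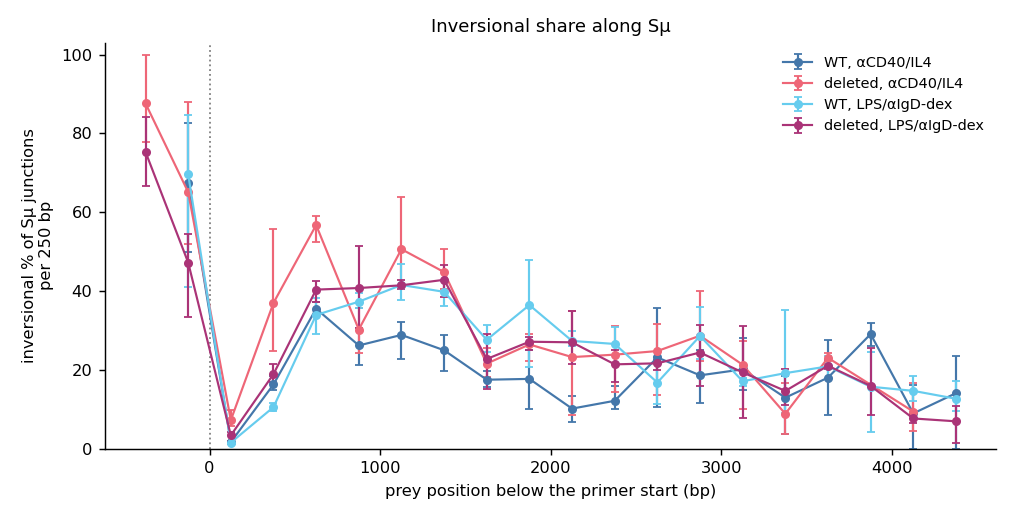
Percentage of Sμ junctions that were inversional in 250-bp steps along Sμ, against prey position in bp below the primer start, which is at 0 (dotted line), in steps with at least 10 junctions in each library of the condition. Points are means of 3 libraries and whiskers run from the lowest to the highest library. The share is highest just above the primer, drops at the bait and rises again within the first 1500 bp.

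Over the whole of Sμ the median position of inversional and deletional preys was not shown to differ, at 1096 ± 146 and 1238 ± 520 bp below the primer (exact sign-flip permutation p = 0.263, n = 12). The spread hid a pattern by condition. In deleted LPS/αIgD-dextran libraries the inversional median lay closer to the primer than the deletional one, with inversional minus deletional differences of -699.5, -800.5 and -973.5 bp. In WT LPS/αIgD-dextran libraries it was farther, by 62, 138.5 and 138 bp, and in WT αCD40/IL4 libraries by 59.5, 219 and 157 bp. In deleted αCD40/IL4 libraries the differences were 140.5, 2 and -148 bp and went both ways. The deletional median was 2061 ± 163 bp in deleted and 1083 ± 47.3 bp in WT LPS/αIgD-dextran libraries, while the inversional median was 1236.8 ± 47.6 and 1195.5 ± 13.3 bp (SD, n = 3 each). The deletional preys of deleted LPS/αIgD-dextran cells lay farther downstream than those of WT cells, and the inversional preys did not move by as much, a description made after the values were seen. Without repeated prey positions, the inversional median over the 12 libraries was 1097 bp and the deletional one 1480.5 bp, a difference of -384 bp (exact sign-flip permutation p = 0.000977), and without junctions under 50 bp from the bait end it was -407 bp (1096 against 1503 bp, exact sign-flip permutation p = 0.000488).

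**Figure D4:**
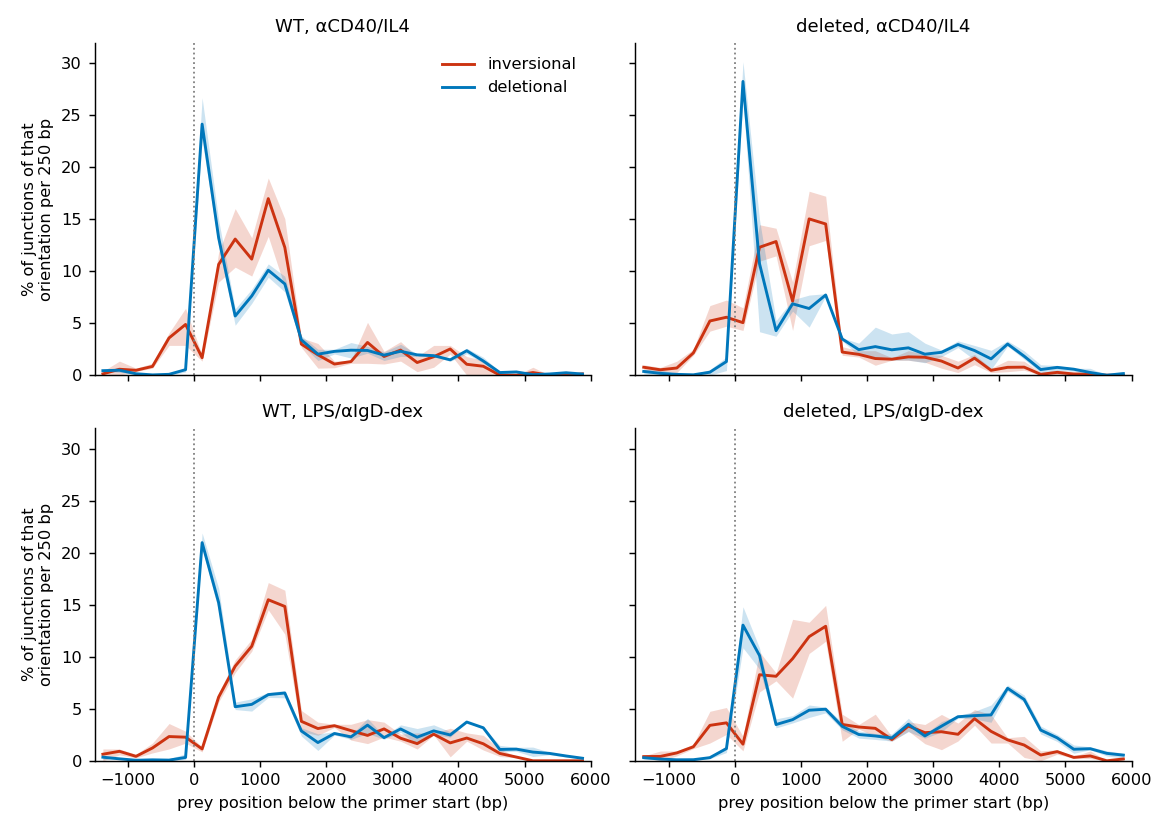
Distribution of inversional and deletional preys along Sμ, as the percentage of junctions of that orientation per 250-bp step, against prey position in bp below the primer start, which is at 0 (dotted line). Lines are means of 3 libraries and bands run from the lowest to the highest library of each condition. Deletional preys peak in the first 250 bp below the primer start, inversional preys between 500 and 1500 bp.

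Sequence overlap between bait and prey, the number of bases at the join that both could supply, was present in 57.3% ± 3.68 of inversional and 55.4% ± 1.76 of deletional junctions (SD, n = 12 libraries, higher in 8 of 12, exact sign-flip permutation p = 0.0977). Where there was overlap it was longer in inversional junctions, 2.59 ± 0.156 against 2.27 ± 0.0808 bases, in 12 of 12 libraries (exact sign-flip permutation p = 0.000488, the smallest possible, adjusted p = 0.00146). Inserted bases were found in 24.2% ± 3.01 of inversional and 20.2% ± 1.48 of deletional junctions, more often in 10 of 12 libraries (exact sign-flip permutation p = 0.00488, adjusted p = 0.00977). With preys of at least 100 aligned bases that last difference was 3.64 points (exact sign-flip permutation p = 0.114).

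Both ends of the overlap distribution were fuller in inversional junctions. Overlaps of 4 or more bases made up 13.9% ± 2.18 of inversional and 9.06% ± 1.36 of deletional junctions, higher in 12 of 12 libraries, and insertions of 5 or more bases 7.81% ± 2.71 and 4.40% ± 0.637, also higher in 12 of 12. Blunt joins, with neither overlap nor insertion, made up 18.5% ± 3.52 and 24.3% ± 2.03 and were less frequent among inversional junctions in 11 of 12 libraries. These class limits were set after the values were seen and were not tested. The mean insertion was 4.96 ± 0.909 bases in inversional and 3.83 ± 0.412 in deletional junctions, and the longest was 30 bases in both. Of 381 single inserted bases in inversional junctions, read on the bait strand, 37.5% were A and 34.1% T, against 34.7% and 33.3% of 1255 in deletional junctions.

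**Figure D5:**
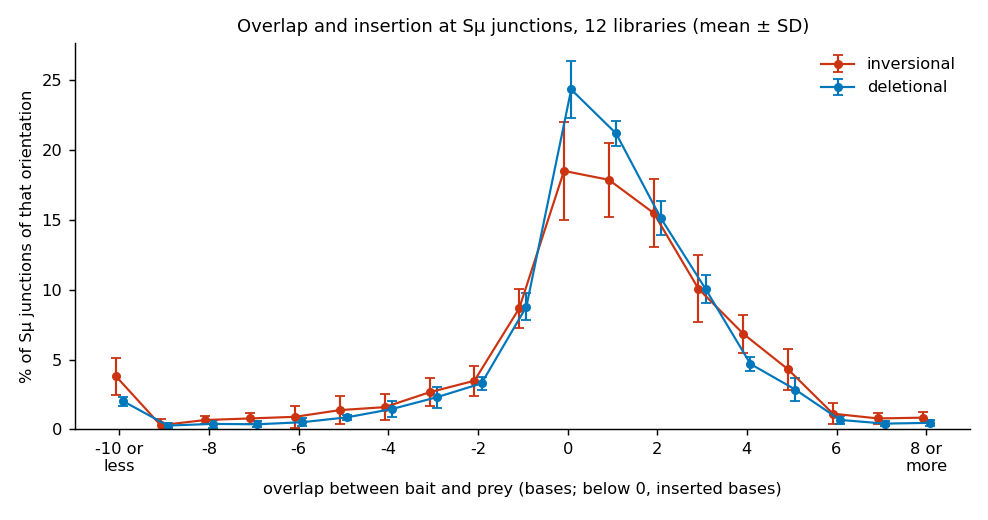
Overlap between bait and prey at Sμ junctions, in bases, with inserted bases as negative numbers, against the percentage of junctions of that orientation. Points are means and whiskers SDs over 12 libraries. Blunt joins reach 24.3% of deletional and 18.5% of inversional junctions, and inversional junctions lie higher at overlaps of 4 and 5 bases and at insertions of 10 bases or more.

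With αCD40/IL4 the share of inversional junctions with overlap was 54.2%, 53.9% and 52.3% in WT and 58.9%, 56.6% and 64.6% in deleted libraries. The libraries did not overlap, with means of 53.5% ± 1.0 and 60.0% ± 4.11 (exact permutation p = 0.1, the smallest possible, adjusted p = 0.233), and within the shared runs the differences were 4.72 and 2.71 points. The difference of 6.57 points became 4.29 points without deleted replicate 3, with a deleted mean of 57.8%, and the libraries were still apart. With LPS/αIgD-dextran it was 58.1%, 58.9% and 54.3% in WT and 59.0%, 54.5% and 62.2% in deleted libraries, which overlapped (exact permutation p = 0.5, n = 3 each). Mean overlap length ranged from 2.39 to 2.89 bases over the 12 libraries, and the share with an insertion from 19.5% to 28.9%. Neither separated the genotypes (exact permutation p = 0.4 to 0.8). In WT cells mean overlap was 2.47 ± 0.0661 bases with αCD40/IL4 and 2.62 ± 0.0314 with LPS/αIgD-dextran, without overlap between libraries (exact permutation p = 0.1, the smallest possible, adjusted p = 0.14). The difference of -0.146 bases was -0.132 or -0.144 bases without LPS/αIgD-dextran replicate 2 or 3, but the values became 2.68 and 2.70 bases with preys of at least 100 bases (exact permutation p = 0.9).

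Of 608 inversional overlaps of 4 or more bases, 85 were CAGCT, 60 CAGC, 51 CCAG, 33 GCTC and 32 AGCT, and 24.8% contained AGCT. All 85 CAGCT overlaps ended at one bait position, 114669192, the last base of the first AGCT of the bait. The bait holds CAGCT only there, so this single bait end follows from its sequence. These overlaps were spread over 66 prey positions and 12 of 12 libraries. In deletional junctions the leading overlaps were GCTG, 224 of 1339, and AGCTG, 216 of 1339. AGCTG is the reverse complement of CAGCT, and AGCT reads the same on both strands.

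The share of bait ends in AID motifs was not shown to differ between the orientations, except within AGCT. The last bait base lay in a DGYW/WRCH motif (D is A, G or T, Y is C or T, W is A or T, R is A or G and H is A, C or T) in 60.3% ± 2.76 of inversional and 61.1% ± 2.33 of deletional junctions (SD, n = 12 libraries, exact sign-flip permutation p = 0.399), while 40.8% of the bait positions lie in such a motif. Within AGCT alone, searched as these letters, which read the same on both strands, the shares were 15.8% ± 1.93 and 11.4% ± 1.16, higher for inversional junctions in 12 of 12 libraries (exact sign-flip permutation p = 0.000488, the smallest possible), against 5.04% of bait positions. An overlap lets the bait alignment run on to the last shared base, and among junctions without overlap the AGCT shares were 17.4% ± 2.41 and 14.8% ± 1.99, higher in 8 of 12 libraries (exact sign-flip permutation p = 0.0200). The shares of bait positions weight every position from 114668991 to 114669228 alike. Bait ends were not spread evenly, with an inversional median of 114669189 close to the first AGCT. An excess of bait ends in motifs therefore cannot be read from these shares.

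The first AGCT of the bait took 10.8% ± 1.93 of inversional and 7.08% ± 0.912 of deletional bait ends, and the next one, at bases 85 to 88, took 4.34% ± 1.04 and 3.64% ± 0.537. The most used inversional bait end was 114669192 with 3.95% ± 1.42, followed by 114669195 with 3.13% ± 1.16, the last and the first base of that first AGCT. On the prey side, the first prey base lay in a DGYW/WRCH motif in 45.8% ± 3.68 of inversional junctions, while such motifs covered 45.7% ± 1.90 of the positions within 50 bp of the same preys, and 7 of 12 libraries were above their local share. For deletional preys the values were 51.1% ± 2.52 and 46.1% ± 1.5, with 12 of 12 libraries above. Among junctions without overlap they were 48.6% ± 6.24 against 46.0% ± 2.39 for inversional preys and 53.1% ± 4.78 against 46.5% ± 1.71 for deletional preys. The prey-side values are a description without a test, and a motif match does not show where AID acted.

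Of the 2329 distinct inversional prey positions, the 5 found in the most libraries were 114668849, 114668090 and 114667961 in 9 libraries each, and 114667943 and 114669246 in 8 each. The position 114668849 belongs to the 13-base overlap shown above and was joined to 4 bait ends, while 114668090 was joined to 9, 114667961 to 8 and 114667943 to 9 bait ends. The positions 114668090, 114667961 and 114667943 lie within the AGCT-rich stretch printed above, and 114667943 is the only one of the 5 within an AGCT. The position 114669246 lies within the first bases of the bait and was joined to a single bait end in 8 libraries. Of the 5 positions, only 114667943 held more than 2 deletional junctions, with 16 against 12 inversional ones, and all 5 were found in every condition.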

How the data were processed

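The authors amplified CSR-HTGTS-seq libraries from a 5′Sμ primer, mapped the reads to a hybrid genome (AJ851868/mm9) and collapsed duplicate reads with their HTGTS pipeline. Bowtie2 and mm9 are named in the submitters' processing notes, without versions. The deposited lists hold 1 row per junction, with coordinates, strands and read positions, not normalized, and no row carried a mark of mapping quality, repeat or duplicate. Libraries were grouped by their labels.

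Members were taken by coordinate and strand, and the members, measures and lists were chosen with earlier results of these data known. Distance is the bait end minus the prey position, and overlap the last bait base minus the first prey base of the read plus 1. For each library 7 measures were computed and compared by two-sided exact permutation over libraries, and inversional with deletional junctions by sign-flip. Bins of 1 kb with at least 5 junctions were tested over the 300-kb window by Fisher's exact test, Benjamini-Hochberg adjusted at 0.05. Named are the 3 fullest kilobases and every called one, the 5 prey positions in most libraries, and the 5 most frequent overlaps of at least 4 bases. The bait and Sμ sequences were read from the reads themselves, with at least 80% agreement. Depth was 209 to 530 inversional junctions per library, and Wilson intervals (95%) and floors (3 junctions) cover counting error only.

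Alternatives covered the denominator, repeated junctions and prey positions, prey length, boundary, near junctions, overlap minimum, bin width, motif, replicate block and each library left out. The bin test was tested on simulated data. Computations ran in Python 3.11.15 (scipy 1.17.1, pandas 2.3.3, numpy 2.4.6) and plots in matplotlib 3.10.9.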

Additional observations from a re-analysis of the deposited data

Results flagged for a closer look

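The difference between deleted and WT cells in the median prey position went in opposite directions with the 2 stimulations. With αCD40/IL4 the deleted library of each number had its median nearer the primer than the WT library of that number, by -60.5, -93 and -120 bp, and with LPS/αIgD-dextran farther, by 55, 2 and 67 bp. The αCD40/IL4 difference minus the LPS/αIgD-dextran difference was -132.5 bp (exact permutation of the 6 differences, p = 0.1, the smallest possible, 0.233 after adjustment over 7 measures). The numbers were not shown to pair the libraries, and neither stimulation alone separated the genotypes in this measure.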

How the results depend on the processing

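All values are differences, deleted minus WT cells, αCD40/IL4 minus LPS/αIgD-dextran, or inversional minus deletional junctions, in percentage points for shares. With αCD40/IL4 the inversional share of Sμ junctions stayed apart between genotypes under every alternative except the share of all junctions genome-wide. As a share of the window, the genotype difference with LPS/αIgD-dextran turned to 6.17 and the stimulation difference in deleted cells was 0.974, no longer apart. Stimulation differences on this scale and genome-wide set αCD40/IL4 lists with fewer IgH junctions than the paper's totals against LPS/αIgD-dextran lists that match them. As a share genome-wide, the genotype differences were 4.22 with αCD40/IL4, no longer apart, and 2.85 with LPS/αIgD-dextran, turned in sign and apart. The stimulation differences genome-wide were -1.20 in WT and 0.175 in deleted cells, neither apart.

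With distinct prey positions, the LPS/αIgD-dextran genotype difference in the inversional share was -1.97 and apart and that in preys on the primer side turned to -0.0481, while inversional minus deletional position and distance were -384 and -409 bp (exact sign-flip permutation p = 0.000977 and 0.000488). Without junctions under 50 bp from the bait end they were -407 and -416 bp (exact sign-flip permutation p = 0.000488 for both). With preys of at least 100 bases, the αCD40/IL4 genotype differences turned for position, 70.8 bp, distance, 74.3 bp, and insertion, -1.34, and for preys on the primer side the value was 2.29 and no longer apart. With LPS/αIgD-dextran the inversional share was -2.17 and apart, insertion turned to -0.0826 and mean overlap to -0.0500 bases. Between stimulations, values no longer apart were the inversional share, -1.39, overlap, -4.65, and mean overlap, -0.0178 bases, in WT cells, and position, -125 bp, distance, -122 bp, and preys on the primer side, 3.59, in deleted cells, where mean overlap turned to 0.150 bases. Insertion in inversional minus deletional junctions was 3.64 (exact sign-flip permutation p = 0.114).

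With preys at or below the primer start, insertion turned to -0.275 between genotypes with αCD40/IL4 and to -0.320 between stimulations in deleted cells, distance with LPS/αIgD-dextran was 55.3 bp and apart, and overlap, -5.11, and mean overlap, -0.120 bases, were no longer apart between stimulations in WT cells. With overlap of at least 2 bases, the stimulation difference in WT cells was -1.43, no longer apart, and inversional minus deletional 5.18 (exact sign-flip permutation p = 0.000488). Of inversional Sμ bins of 2 kb, 3 of 4 were called with αCD40/IL4 against 42.2% of all such bins. Of those of 500 bp, 6 of 14 were called with αCD40/IL4 against 34.5%, all higher in deleted cells, and 13 of 18 with LPS/αIgD-dextran against 57.7%, 12 of them higher and 1, from 114671501 to 114672000, lower with 0 against 12 junctions. For bait ends in motifs the difference turned from -0.832 to 0.642 with RGYW/WRCY, to 4.38 with AGCT alone, to 1.96 without overlap and to 2.54 with AGCT alone without overlap, the last chosen after seeing the data.

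Libraries of one number were not shown to deviate together, with correlations of -0.813 to 0.844, so the numbers were not taken as pairs except in the test of the genotype difference between stimulations. With the replicate block the 3 differences between genotypes had one sign for position, -91.2 bp, and distance, -74.8 bp, with αCD40/IL4 and for position with LPS/αIgD-dextran, 41.3 bp (exact sign-flip permutation p = 0.25 for each, the smallest possible), and the block changed no other call.

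Leaving out each library in turn moved the genotype differences with αCD40/IL4 from -139.5 to -28.4 bp for position, from -142 to -21.8 bp for distance, from 4.29 to 8.28 for overlap, from -1.35 to 3.28 for insertion and from 0.0264 to 0.257 bases for mean overlap. With LPS/αIgD-dextran they ran from -0.769 to 0.408 for the inversional share, from 22.25 to 68 bp for position, from -0.198 to 0.522 for preys on the primer side, from -8.5 to 31.75 bp for distance, from -0.361 to 3.50 for overlap and from -0.0605 to 0.135 bases for mean overlap. Between stimulations they ran in WT cells from 0.472 to 3.30 for preys on the primer side and from -0.0633 to 3.64 for insertion, and in deleted cells from -0.797 to 3.29 for overlap, from -1.37 to 2.81 for insertion and from -0.166 to 0.0719 bases for mean overlap. Overlap in inversional minus deletional junctions ran from 0.981 to 2.31, and bins called with αCD40/IL4 from 3, without deleted replicate 1, to 5. Of these, overlap between genotypes with αCD40/IL4 and the bins were calls of the full data, and that overlap stayed apart. The causes of these changes were not tested.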
